A study of Mus musculus with 20 samples.

Results

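The 37 genes described here are core autophagy genes, mitophagy genes and lysosomal genes, and all 37 were measured among 19938 genes. They were chosen by name as a list, with earlier results of these data known. Each gene was represented by its brightest probe set of a single symbol over 20 arrays. Expression was measured on Affymetrix Gene 1.0 ST arrays in gastrocnemius, a calf muscle, of adult male C57BL/6 mice. There were 4 groups of 5 arrays: NCoR1-MKO mice, with a muscle-specific knockout of the nuclear receptor corepressor NCoR1, and their controls, labelled CON, and PGC-1alpha-mTg mice, with a muscle-specific transgene for the coactivator PGC-1alpha, and their controls, labelled WT. No treatment is named for any group. The genotype of the CON mice, the age in weeks, the transgene's promoter and the Cre line were not stated in the labels. Nothing in the labels ties every array to a mouse of its own, and the p-values therefore measure the spread between samples, which may be technical.

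Autophagy encloses cytoplasm in a double membrane, the autophagosome, and delivers it to the lysosome for breakdown. The ULK kinase complex starts the process, a lipid kinase complex built on Vps34 and Beclin 1 marks the membrane, and a pair of ubiquitin-like conjugation systems attaches ATG8 proteins (the LC3 and GABARAP families) to it. Receptors such as p62 and the mitophagy receptors bind cargo to ATG8 proteins, and TFEB and TFE3 switch on lysosomal and autophagy genes. In skeletal muscle, autophagy is known for removing damaged mitochondria and for supplying amino acids in fasting.

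Promoter windows were taken from RefSeq on mouse build GRCm38.p6, from 250 bases before to 50 bases after each listed start. Of the 37 genes, 30 matched an entry, with 36 windows, so some genes have more than 1 start. Which start is used in this muscle was not tested. The 3 sequences below are from genes called in at least 1 comparison that held a searched motif. They are written 5′ to 3′ on the strand of the gene, and the capitals mark the match. Atg7 lies at chr6:114670846-114671145 on the plus strand, Atg14 at chr14:47568385-47568684 on the minus strand, and Atg4a, by 1 of its windows, at chrX:140953595-140953894 on the plus strand.
Atg7: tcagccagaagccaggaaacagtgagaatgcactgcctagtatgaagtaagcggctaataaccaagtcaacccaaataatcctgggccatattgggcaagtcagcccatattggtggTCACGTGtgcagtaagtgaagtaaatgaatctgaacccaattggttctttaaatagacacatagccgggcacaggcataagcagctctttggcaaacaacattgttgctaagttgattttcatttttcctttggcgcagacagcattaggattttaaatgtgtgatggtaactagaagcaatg
Atg14: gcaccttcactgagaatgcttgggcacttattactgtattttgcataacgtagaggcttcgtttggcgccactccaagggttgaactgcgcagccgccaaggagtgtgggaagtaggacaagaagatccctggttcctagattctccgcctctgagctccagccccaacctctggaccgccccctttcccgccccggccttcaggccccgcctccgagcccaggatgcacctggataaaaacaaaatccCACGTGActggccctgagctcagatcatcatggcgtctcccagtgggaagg
Atg4a: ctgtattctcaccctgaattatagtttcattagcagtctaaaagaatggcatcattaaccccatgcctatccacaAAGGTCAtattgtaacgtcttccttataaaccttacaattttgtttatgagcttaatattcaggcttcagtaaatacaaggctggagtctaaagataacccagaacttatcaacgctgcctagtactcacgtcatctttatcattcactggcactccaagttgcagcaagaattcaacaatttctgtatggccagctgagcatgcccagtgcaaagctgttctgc

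The core of the TFEB and TFE3 site, TCACGTG or its reverse complement CACGTGA, was found in 5 of the 36 windows (13.9%) and in 1237 of all 32851 promoters in the table (3.77%). These words overlap where an A follows TCACGTG. In Atg7 the match ran from position -133 to -127, counted from the start of that window's entry, and in Atg14 from -1 to 5. The other 3 genes with a match were Ctsd, Lamp1 and Atg3, with changes in PGC-1alpha-mTg muscle of 0.05, -0.06 and -0.13 that did not pass the test. The core of the estrogen-related receptor site, AAGGTCA or TGACCTT, a site class bound by partners of PGC-1alpha, was found in 1 of the 36 windows (2.78%), that of Atg4a at -175 to -169, and in 4.72% of all promoters. The core of the FOXO site, TGTTTAC or GTAAACA, was found in 0 of the 36 windows and in 3.65% of all promoters. A match describes the letters in the window and is not evidence of binding. The genes and motifs were chosen with earlier results of these data known.

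Values are log2 signals after robust multi-array averaging, so a difference of 1 is a doubling, and no level is compared between genes. Array medians lay between 6.03 and 6.08 in the CON and NCoR1-MKO groups and between 5.84 and 5.91 in the WT and PGC-1alpha-mTg groups, so each model was set against its own controls only. Ppargc1a, the gene for PGC-1alpha, read 9.38 to 9.75 on the WT arrays and 11.36 to 11.53 on the PGC-1alpha-mTg arrays, 3.55-fold higher (log2 change 1.83 ± 0.07 SE, limma adjusted p = 9.88e-15). Ncor1 was not analysed here. The muscle markers were bright on every array, with a mean log2 level over the 8 genes of 12.81 to 13.42. Their changes are given with the other markers below. Array 5 of the PGC-1alpha-mTg group correlated least with its own group (mean Pearson r = 0.9942 over genes, against 0.9956 to 0.9967 for the other 4).

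In PGC-1alpha-mTg muscle, 16 of the 37 genes fell and 5 rose (limma, Benjamini-Hochberg adjusted p under 0.05 over all genes). The genes that fell included the kinase gene Ulk2, the receptor gene Sqstm1, the protease genes Atg4a and Atg4c and the mitophagy genes Fundc1, Bnip3, Bnip3l and Pink1. The genes that rose were Wipi1, Ctsb, Atg10, Map1lc3a and Atg4d. Without PGC-1alpha-mTg array 5, 21 genes were called lower and 5 higher. In NCoR1-MKO muscle, 1 of the 37 genes, Map1lc3a, fell, and 0 rose. The 16 that fell in PGC-1alpha-mTg muscle are 43.2% of the list, beside 16.1% of all genes tested, and the 5 that rose are 13.5%, beside 11.9%. All 37 genes lie above the dimmest 40% of genes, and among the 11963 genes above that level 25.7% fell and 16.4% rose. The counts by role below cover few genes each and stand beside these shares. The list was chosen with earlier results of these data known, so the shares describe it and are no independent test. The median change of the list was -0.13 in PGC-1alpha-mTg muscle, beside 0.02 over all genes, and 0.01 in NCoR1-MKO muscle, beside 0.00. No median over the genes above the dimmest 40% is given, so the shift from all genes may be overstated.

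The changes were small. The rises ran from 0.32 to 0.47 and the falls from -0.16 to -0.48 on the log2 scale. In 19 of the 21 called genes the 5 PGC-1alpha-mTg arrays did not overlap the 5 WT arrays, and Fundc1 and Atg7 were the exceptions. In all 21, every PGC-1alpha-mTg array lay on the same side of the WT mean. Genes that pass the test with 5 arrays per group tend to separate in this way. The share over all genes was not computed, so these counts add no support to the calls. Levels in whole muscle cannot tell fewer cells of a type from less RNA per cell.

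**Figure D1:**
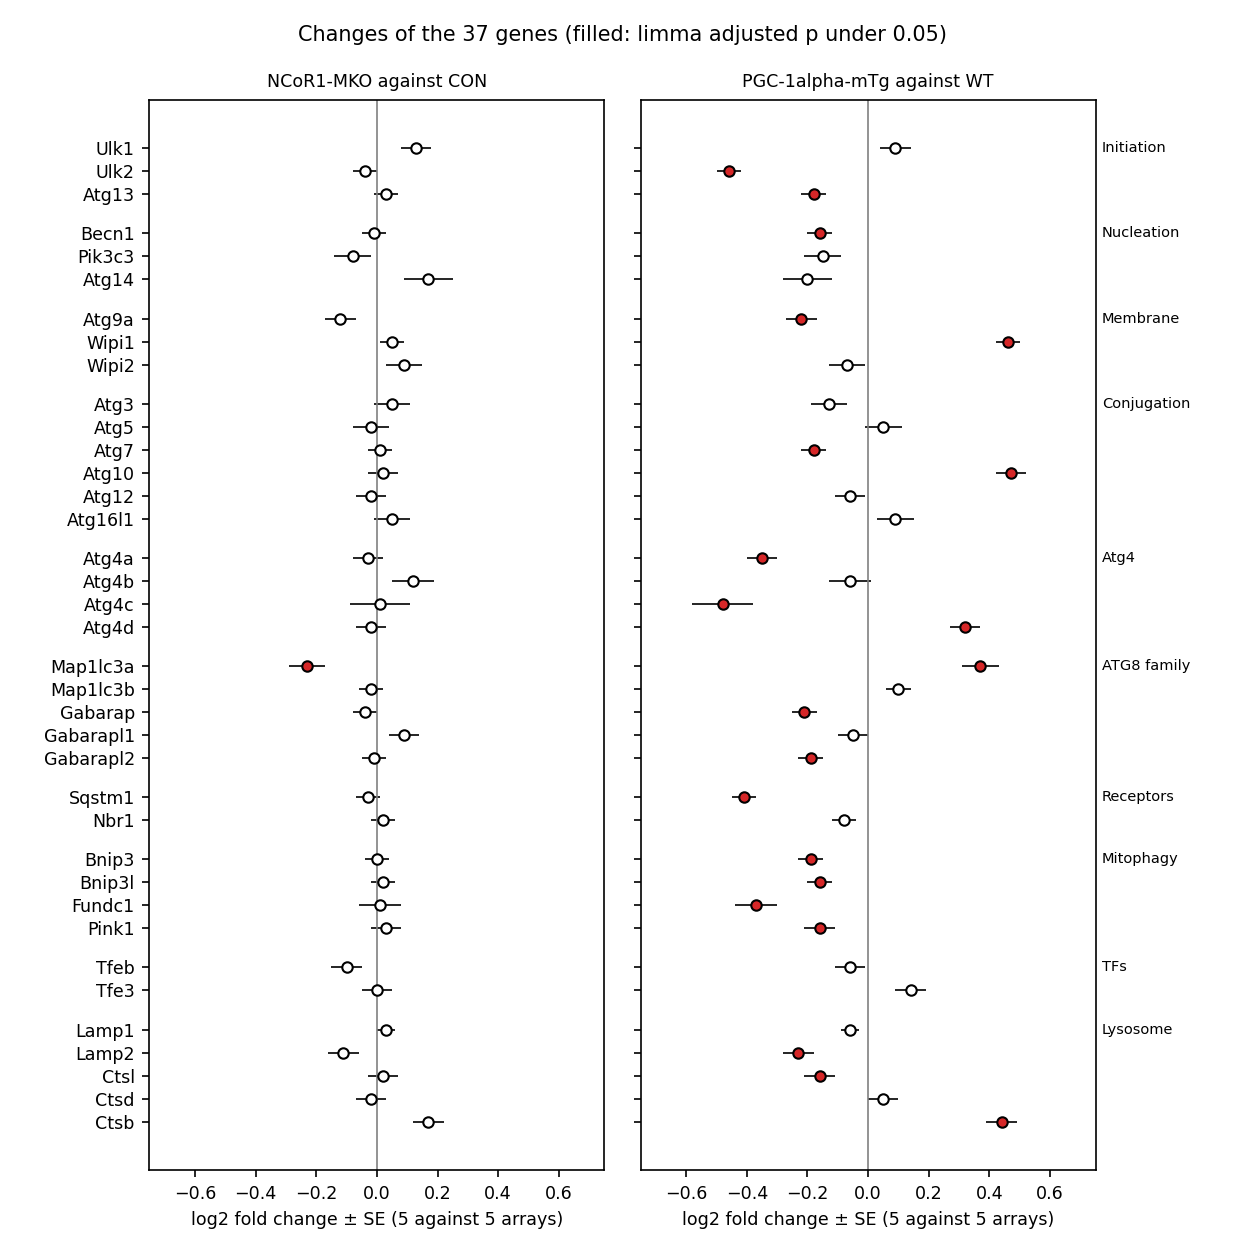
Log2 change of each of the 37 genes, by role, in NCoR1-MKO against CON and in PGC-1alpha-mTg against WT, with standard errors; filled points passed adjusted p under 0.05. The points that were not called lie between -0.12 and 0.17 in NCoR1-MKO and between -0.20 and 0.14 in PGC-1alpha-mTg. The called NCoR1-MKO point, Map1lc3a, lies at -0.23, and the called PGC-1alpha-mTg points reach from -0.48 to 0.47.

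Among the genes that start autophagy, 2 of 3 fell in PGC-1alpha-mTg muscle. Ulk2, a kinase of the initiating complex, read 9.63, 9.63, 9.66, 9.69 and 9.61 on WT arrays 1 to 5 and 9.21, 9.11, 9.18, 9.21 and 9.24 on PGC-1alpha-mTg arrays 1 to 5. Every transgenic array was below every WT array, at 0.729 of the WT level (log2 change -0.46 ± 0.04 SE, limma adjusted p = 8.93e-10), the smallest adjusted p of the list. Atg13, the scaffold that joins the kinases to their partners, fell by 0.18 (adjusted p = 0.00239), from 9.49 to 9.71 in WT to 9.34 to 9.44. Ulk1, the paralog of Ulk2, was not called, with a change of 0.09 ± 0.05 SE (adjusted p = 0.231) and overlapping groups.

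Of the Vps34 lipid kinase complex, Becn1 (Beclin 1) fell by 0.16 (limma adjusted p = 0.00308), with 8.55 to 8.64 on WT arrays and 8.37 to 8.49 on transgenic arrays. Pik3c3, the catalytic subunit Vps34, changed by -0.15 (adjusted p = 0.0698), and Atg14, the subunit that directs the complex to the autophagosome, by -0.20 (adjusted p = 0.0801). Both had overlapping groups and were not called, so 1 of 3 passed and all 3 changes were negative.

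The genes that supply membrane moved in opposite directions. Wipi1, which binds the lipid made by Vps34, read 9.04, 8.90, 8.93, 8.84 and 8.95 on WT arrays 1 to 5 and 9.39, 9.31, 9.35, 9.40 and 9.49 on PGC-1alpha-mTg arrays 1 to 5. All transgenic arrays were higher, by 1.37-fold (0.46 ± 0.04 SE, limma adjusted p = 1.48e-08). Atg9a, a scramblase of the vesicles that seed the membrane, read 9.49, 9.57, 9.53, 9.50 and 9.51 in WT and 9.26, 9.28, 9.28, 9.33 and 9.36 in PGC-1alpha-mTg muscle, without overlap (-0.22 ± 0.05 SE, adjusted p = 0.000823). Wipi2, the paralog of Wipi1 that recruits the conjugation machinery, was not called (-0.07, adjusted p = 0.445).

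Of the 6 conjugation genes, 1 rose and 1 fell. Atg10, the enzyme that transfers ATG12 to ATG5, had the largest rise of the list and read 8.73, 8.62, 8.59, 8.51 and 8.57 on WT arrays 1 to 5 and 9.14, 9.10, 9.01, 9.00 and 9.09 on PGC-1alpha-mTg arrays 1 to 5. The groups were apart, with a 1.38-fold rise (0.47 ± 0.05 SE, limma adjusted p = 2.67e-07). Atg7, the activating enzyme of both conjugation systems and 1 of the promoters printed above, fell by 0.18 (adjusted p = 0.00297), from 7.29 to 7.50 in WT to 7.19 to 7.31, where the lowest WT array lay below the highest transgenic array. Atg3, Atg5, Atg12 and Atg16l1, the remaining enzymes and substrates, had changes of -0.13, 0.05, -0.06 and 0.09 and were not called.

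The ATG4 proteases, which trim ATG8 proteins before conjugation and release them afterwards, split between paralogs. Atg4a read 9.31, 9.39, 9.25, 9.25 and 9.31 in WT and 9.10, 8.85, 9.03, 8.88 and 8.89 in PGC-1alpha-mTg muscle, all lower, at 0.783 of the WT level (-0.35 ± 0.05 SE, limma adjusted p = 1.73e-05). Atg4c read 6.98, 6.77, 7.05, 6.75 and 6.84 in WT and 6.47, 6.26, 6.18, 6.34 and 6.71 in PGC-1alpha-mTg muscle, the largest fall of the list (-0.48 ± 0.10 SE, adjusted p = 0.000619), with array 5 nearest to WT. Against these, Atg4d read 8.29, 8.21, 8.22, 8.08 and 8.16 in WT and 8.55, 8.56, 8.52, 8.37 and 8.54 in PGC-1alpha-mTg muscle, all higher, by 1.25-fold (0.32 ± 0.05 SE, adjusted p = 2.87e-05). Atg4b, the protease with the broadest activity on the family, was not called (-0.06, adjusted p = 0.581). Atg4a has a second probe set, which changed by -0.32.

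The ATG8 proteins themselves also split. Map1lc3a, an LC3 gene, read 9.17, 9.11, 9.06, 8.87 and 8.98 on WT arrays 1 to 5 and 9.41, 9.28, 9.37, 9.47 and 9.51 on PGC-1alpha-mTg arrays 1 to 5. All transgenic arrays were higher, by 1.29-fold (0.37 ± 0.06 SE, limma adjusted p = 3.67e-05). Gabarap, of the family that acts late in autophagosome closure, read 11.82, 11.76, 11.64, 11.72 and 11.75 in WT and 11.56, 11.46, 11.51, 11.50 and 11.58 in PGC-1alpha-mTg muscle, all lower (-0.21 ± 0.04 SE, adjusted p = 0.000169). Gabarapl2, its paralog, read 11.13, 11.12, 11.14, 11.17 and 11.04 in WT and 10.88, 10.92, 10.90, 11.00 and 10.94 in PGC-1alpha-mTg muscle, also all lower (-0.19 ± 0.04 SE, adjusted p = 0.000561).

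A second, dim probe set of Gabarapl2 with a mean level of 5.10 changed by -0.10 ± 0.11 SE (limma adjusted p = 0.560), and with the mean of both probe sets Gabarapl2 was no longer called (adjusted p = 0.0919). The locus that each probe set reads was not stated, here or for the other 4 genes with a second probe set. Map1lc3b, the LC3 gene most used as a marker of autophagosomes, was not called (0.10, adjusted p = 0.0639), although its groups did not overlap, at 10.90 to 11.00 and 11.03 to 11.11. Gabarapl1 was not called either (-0.05, adjusted p = 0.594).

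**Figure D2:**
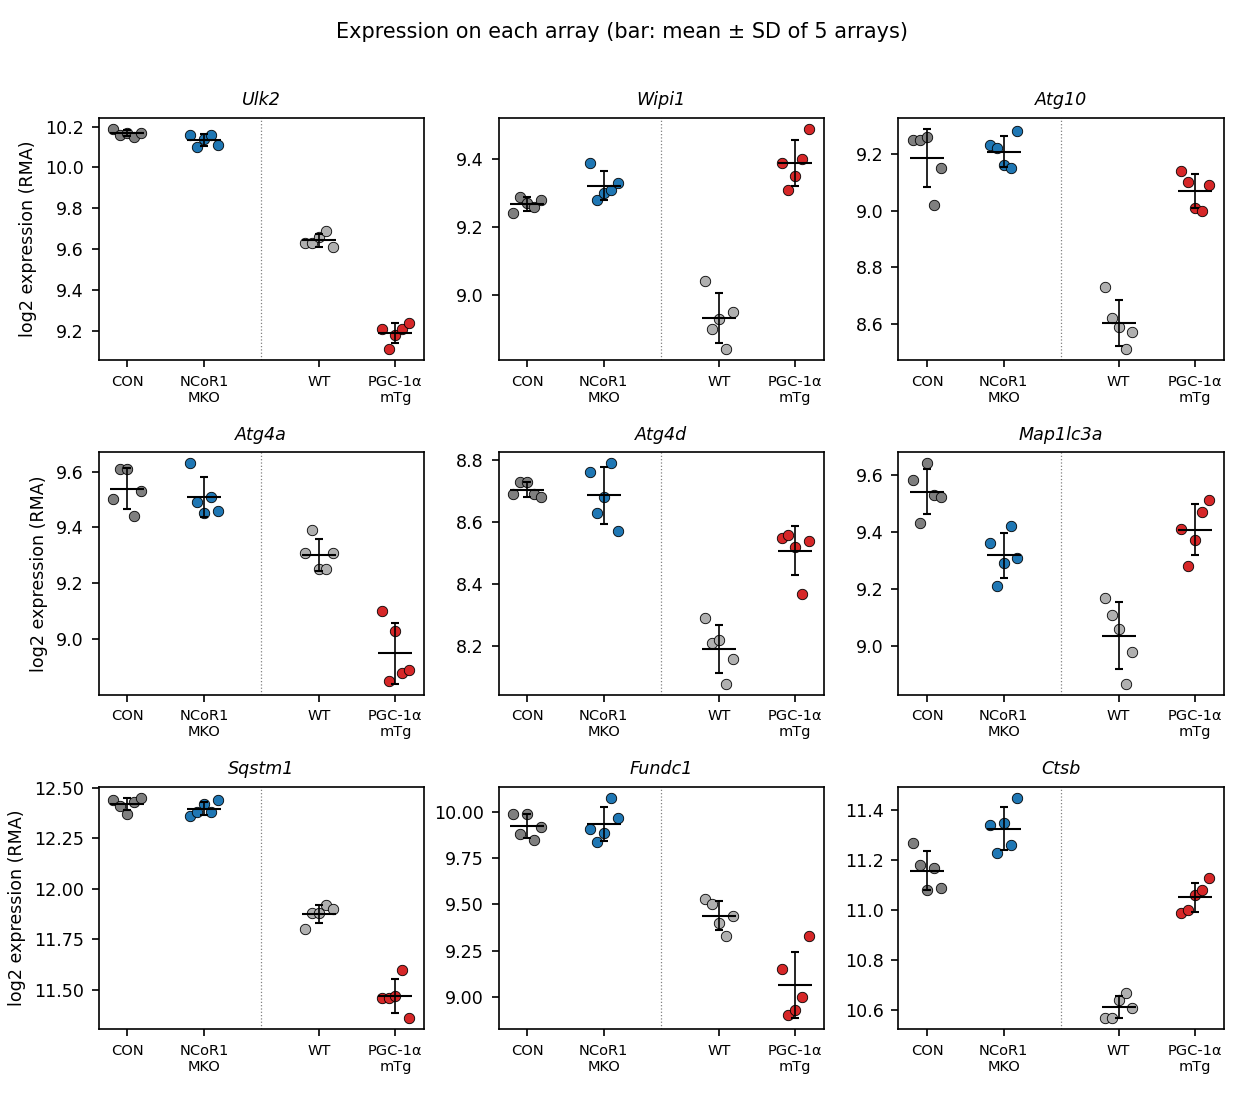
Log2 level on each array, by group, for 9 of the called genes, with a bar at the mean ± SD of 5 arrays; the dotted line parts the cohorts, and each panel has its own scale. In Ulk2, Sqstm1, Wipi1 and Atg10 the PGC-1alpha-mTg points lie apart from the WT points, while the CON and NCoR1-MKO points overlap.

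Of the 2 cargo receptors for ubiquitin-marked material, Sqstm1 (p62) fell. It read 11.80, 11.88, 11.88, 11.92 and 11.90 on WT arrays 1 to 5 and 11.46, 11.46, 11.47, 11.60 and 11.36 on PGC-1alpha-mTg arrays 1 to 5. Every transgenic array was lower, at 0.755 of the WT level (-0.41 ± 0.04 SE, limma adjusted p = 7.70e-08). Nbr1, a receptor of similar design, was not called (-0.08, adjusted p = 0.184).

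All 4 mitophagy genes of the list fell in PGC-1alpha-mTg muscle, beside 25.7% of all genes above the dimmest 40%. Fundc1, an outer-membrane receptor known for mitophagy in low oxygen, read 9.53, 9.50, 9.40, 9.33 and 9.44 in WT and 9.15, 8.90, 8.93, 9.00 and 9.33 in PGC-1alpha-mTg muscle. Array 5 of the transgenic group reached the lowest WT array, and the change was -0.37 ± 0.07 SE (limma adjusted p = 0.000196). Bnip3, a hypoxia-induced receptor, read 11.11, 11.16, 11.17, 11.14 and 11.31 in WT and 10.97, 10.96, 10.96, 11.02 and 11.01 in PGC-1alpha-mTg muscle, all lower (-0.19 ± 0.04 SE, adjusted p = 0.000525). Bnip3l (Nix), its paralog, read 11.88, 11.92, 11.85, 11.83 and 11.87 in WT and 11.74, 11.65, 11.68, 11.70 and 11.78 in PGC-1alpha-mTg muscle, also all lower (-0.16 ± 0.04 SE, adjusted p = 0.00176).

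Pink1, the kinase that marks damaged mitochondria for the ubiquitin ligase Parkin, fell by 0.16 (limma adjusted p = 0.0249), from 11.30 to 11.37 in WT to 11.12 to 11.25. It lost its call without WT array 1 (adjusted p = 0.0549) or PGC-1alpha-mTg array 2 (0.0620) or 3 (0.0577). The second probe sets of Bnip3 and Bnip3l changed by -0.29 and -0.16.

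**Figure D3:**
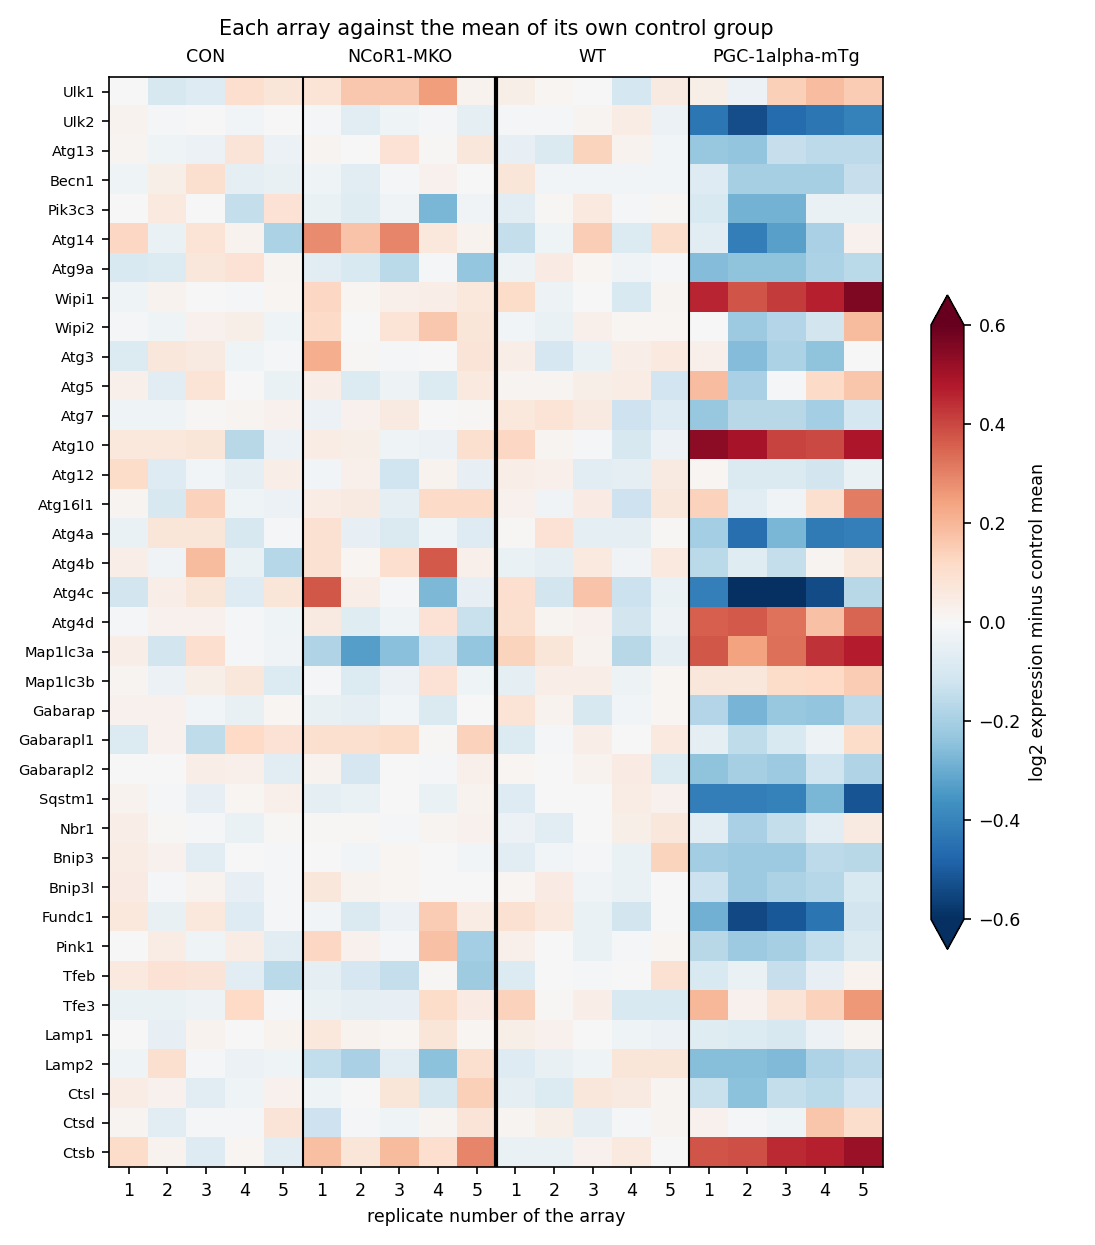
Level of each of the 37 genes on each array minus the mean of that cohort's controls (log2), with genes ordered by role and arrays by group. The called genes of PGC-1alpha-mTg muscle keep 1 sign across its 5 arrays. Among the NCoR1-MKO columns Map1lc3a is below 0 on all 5, as are Ulk2, Pik3c3 and Atg9a, which were not called.

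Of the 5 lysosomal genes, 1 rose and 2 fell. Ctsb, the protease cathepsin B, read 10.57, 10.57, 10.64, 10.67 and 10.61 on WT arrays 1 to 5 and 10.99, 11.00, 11.06, 11.08 and 11.13 on PGC-1alpha-mTg arrays 1 to 5. All transgenic arrays were higher, by 1.36-fold (0.44 ± 0.05 SE, limma adjusted p = 1.78e-07). Lamp2, a lysosomal membrane protein, fell by 0.23 (adjusted p = 0.00292), from 9.52 to 9.67 to 9.33 to 9.44, and Ctsl (cathepsin L) fell by 0.16 (adjusted p = 0.0126), from 10.02 to 10.17 to 9.86 to 9.99. Lamp1 and Ctsd (cathepsin D) were not called, with changes of -0.06 and 0.05. The regulators Tfeb and Tfe3 were not called: Tfeb changed by -0.06 (adjusted p = 0.469) and Tfe3 by 0.14 (adjusted p = 0.0603). Under quantile normalization Tfe3 was called higher (adjusted p = 0.00545), with a change of 0.18.

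Markers of other cells moved in the same comparison. Macrophages are rich in cathepsins: 1 of 12 macrophage markers rose (C1qa, 0.26), and the summed level of the 12 ran from 1620 to 2055 on WT arrays and from 1916 to 2276 on PGC-1alpha-mTg arrays. Of 8 endothelial markers 5 rose, with sums of 2996 to 3531 and 3962 to 4341 that did not overlap. Of 7 fibroblast markers 2 fell and all 7 changes were negative, with sums of 7651 to 8879 and 6841 to 7365. Such sums of unlogged signals follow the brightest genes, here Dcn, with a WT mean of 12.51 and a change of -0.17. Of 8 slow-fibre markers 6 fell, with sums of 7637 to 11069 and 3812 to 6769, and a median change of -0.70. Of the 8 muscle markers 1 rose (Mb, 0.29) and 2 fell (Ttn, -0.16, and Mylpf, -0.12). Their median change was -0.07, with 7 changes negative. The part of these cells and fibres in the changes of the 37 genes was not tested.

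In NCoR1-MKO muscle the 37 genes stayed near their controls. The 1 gene that fell is 2.70% of the list, beside 1.32% of all genes, and the 0 that rose stand beside 1.31% of all genes. By limma at an unadjusted p under 0.05 there were 2 members higher (5.41%) and 2 lower (5.41%), beside 6.59% and 5.23% of all genes, and with a trended, robust prior 1 member was called higher. The 36 genes not called ranged from -0.12 to 0.17, 30 of them within 0.1 of no change, with standard errors of 0.03 to 0.10.

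Map1lc3a read 9.58, 9.43, 9.64, 9.53 and 9.52 on CON arrays 1 to 5 and 9.36, 9.21, 9.29, 9.42 and 9.31 on NCoR1-MKO arrays 1 to 5. Every knockout array was below every CON array, with a fall of 0.23 ± 0.06 SE (limma adjusted p = 0.0378). The call was lost when CON array 1, 3, 4 or 5 or NCoR1-MKO array 1, 2, 3 or 5 was left out, with adjusted p up to 0.118, and when each array was centred on its median (0.0652). Ctsb read 11.27, 11.18, 11.08, 11.17 and 11.09 in CON and 11.34, 11.23, 11.35, 11.26 and 11.45 in NCoR1-MKO muscle, overlapping, with a change of 0.17 ± 0.05 SE (adjusted p = 0.0597). Ctsb was called higher in this model under quantile normalization (adjusted p = 0.0271), without the dimmest 40% of genes (0.0352) and with the trended, robust prior (0.0169). Among the cell markers in this model, 1 of 8 endothelial markers rose, and the endothelial sums, 3529 to 4145 on CON arrays and 4215 to 5287 on NCoR1-MKO arrays, did not overlap. Of 8 slow-fibre markers 2 fell and all 8 changes were negative, with a median of -0.79 and overlapping sums of 6712 to 13055 and 4322 to 8570. The macrophage sums ran from 2189 to 2491 and from 2063 to 3181. Of the 8 muscle markers 1 rose (Mylpf, 0.14) and 0 fell, with a median change of 0.02. The part of these cells and fibres in the values of the 37 genes was not tested here either.

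The 2 models were compared by the difference of their effects. A call in 1 model and not in the other is no test of a difference. Each effect comes from its own cohort, with its own controls and array medians. A difference between the models therefore cannot be told apart from a difference between the cohorts. The PGC-1alpha-mTg effect was higher than the NCoR1-MKO effect for 5 of the 37 genes (13.5%), beside 6.66% of all genes. It was lower for 12 (32.4%), beside 8.50% of all genes. All 37 genes are among the brighter genes, where calls in PGC-1alpha-mTg muscle were more frequent than over all genes. No share among the brighter genes alone is given for this difference, so the excess over all genes may be overstated. The largest difference was that of Map1lc3a, at 0.60 ± 0.08 SE (limma adjusted p = 1.92e-05), where the 2 effects had opposite signs. Ulk2 differed by -0.42 (adjusted p = 2.38e-06), Sqstm1 by -0.38 (6.63e-05), Wipi1 by 0.40 (3.75e-05), Atg10 by 0.45 (0.000139) and Ctsb by 0.27 (0.00729).

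Of the 21 genes called in PGC-1alpha-mTg muscle, 16 also differed from the NCoR1-MKO effect. The other 5, Atg9a, Lamp2, Becn1, Ctsl and Pink1, did not pass this test, with adjusted p = 0.345, 0.394, 0.0747, 0.0816 and 0.104, which does not show that they moved alike. Atg14 was called in the difference only (-0.36, limma adjusted p = 0.0357), with 6.77 to 7.08 in CON, 6.98 to 7.25 in NCoR1-MKO, 6.91 to 7.20 in WT and 6.64 to 7.08 in PGC-1alpha-mTg muscle, and that call was kept in 10 of 20 leave-one-out fits.

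Around these genes, 137 further genes of the pathway were listed and 128 were measured. In PGC-1alpha-mTg muscle 23 of the 128 rose and 32 fell (25.0%), with a median change of -0.04. Among all genes above the dimmest 40%, 16.4% rose and 25.7% fell, so the share that fell was near that background. Under quantile normalization the split was 32 higher and 28 lower. No share over all genes under that normalization is given here, so this split has no background beside it. In NCoR1-MKO muscle 1 rose, Scarb2 (0.18, limma adjusted p = 0.0430), a lysosomal membrane receptor that carries glucocerebrosidase, and 1 fell, Igf2r (-0.22, adjusted p = 0.0149), a sorting receptor for lysosomal enzymes. Igf2r lost its call without CON array 5 (0.0533), and Scarb2 kept its call in 6 of 20 leave-one-out fits. At an unadjusted p under 0.05, 13 of the 128 were higher (10.2%) and 10 lower (7.81%) in this model, beside 6.59% and 5.23% of all genes.

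**Figure D4:**
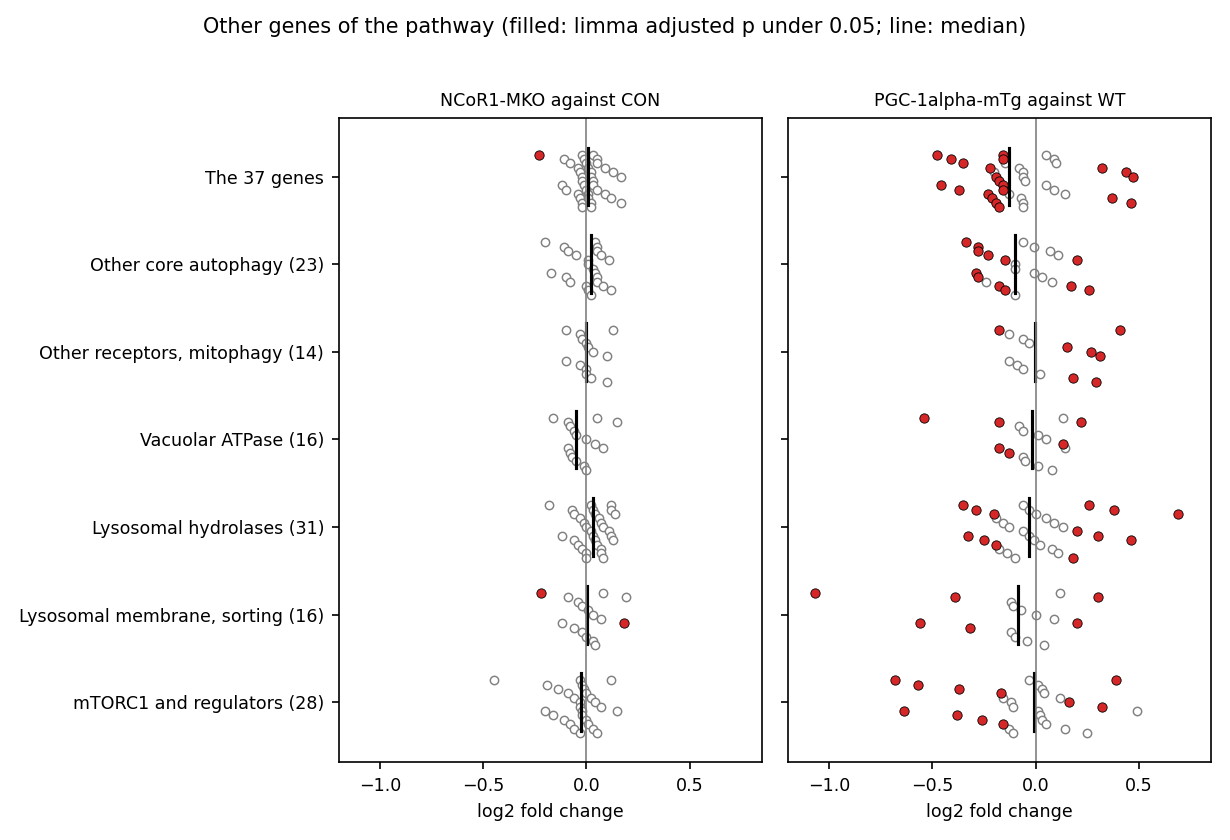
Log2 change of every measured gene of the 6 further lists and of the 37 genes, in NCoR1-MKO against CON and in PGC-1alpha-mTg against WT, with called genes filled and a line at each median. In PGC-1alpha-mTg muscle the other receptors and mitophagy genes hold 6 filled points above 0 and 1 below, and Sort1 is the lowest point at -1.07.

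Of 23 other core autophagy genes, 3 rose and 9 fell (39.1%) in PGC-1alpha-mTg muscle. These counts stand beside 16.4% and 25.7% of all genes above the dimmest 40%. Zfyve1, a marker of the membrane where autophagosomes form, fell by 0.28 (limma adjusted p = 4.08e-05), the lipid transfer gene Atg2b by 0.23, the scramblase gene Tmem41b by 0.29 and Stx17, a SNARE of autophagosome fusion, by 0.28. Sh3glb1, a partner of Beclin 1, rose by 0.20, Atg2a, the paralog of Atg2b, by 0.26 and Rb1cc1, the FIP200 scaffold of the ULK complex, by 0.17. Of 14 other receptors and mitophagy genes, 6 rose and 1 fell, beside 16.4% and 25.7% of all genes above the dimmest 40%. The inner-membrane receptor Phb2 rose by 0.41 (adjusted p = 2.79e-08), Nipsnap2 by 0.31, the outer-membrane receptor Bcl2l13 by 0.29 and the mitochondrial ubiquitin ligase Mul1 by 0.27. Calcoco1, a receptor for endoplasmic reticulum, fell by 0.18.

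Among 31 lysosomal hydrolases and their cofactors, 7 rose (22.6%) and 6 fell (19.4%). These shares stand beside 16.4% and 25.7% of all genes above the dimmest 40%. Ctsf (cathepsin F) rose by 0.69 ± 0.06 SE (limma adjusted p = 6.79e-09), from 7.45 to 7.71 on WT arrays to 8.13 to 8.50. Smpd1, the acid sphingomyelinase, rose by 0.46, Ctsh (cathepsin H) by 0.38 and Psap, the saposin precursor, by 0.20. Gaa, the enzyme that degrades lysosomal glycogen, fell by 0.33, Hexa by 0.35, Tpp1 by 0.25 and Ctsz by 0.29. Of 16 subunits of the proton pump that acidifies the lysosome, 2 rose (12.5%) and 4 fell (25.0%), beside the same background. The falls were led by Atp6v1g1 at -0.54 (adjusted p = 4.11e-08) and Atp6ap1 at -0.18, against Atp6v0a1 at 0.22. The calls of Atp6v0a2 (0.13), Atp6v0d1 (-0.13) and Atp6v1h (-0.18) were each lost in some fits, with adjusted p up to 0.0731, 0.0978 and 0.0929.

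The largest called falls lay among sorting receptors and nutrient-sensing genes. Sort1 (sortilin), a sorting receptor between the Golgi and endosomes, read 9.37 to 9.53 on WT arrays and 8.15 to 8.54 on PGC-1alpha-mTg arrays, at 0.477 of the WT level (-1.07 ± 0.06 SE, limma adjusted p = 2.01e-11). Of 16 genes of lysosomal membrane and sorting, 4 fell (25.0%) and 2 rose (12.5%). Among all genes above the dimmest 40%, 25.7% fell and 16.4% rose. Laptm4b changed by -0.56, Cd63 by -0.39, Igf2r by -0.32, Tpcn2 by 0.30 and Scarb2 by 0.20. A mixed list of 28 genes held mTORC1 signalling at the lysosome, transcription factors such as Foxo genes and Mitf, and the atrophy ligases Trim63 and Fbxo32. Of these 28 genes, 8 fell (28.6%) and 3 rose (10.7%), beside the same background. Rragd, a Rag GTPase that tethers mTORC1 to the lysosome, read 10.61 to 10.73 on WT arrays and 9.91 to 10.11 on PGC-1alpha-mTg arrays (-0.68 ± 0.04 SE, adjusted p = 2.68e-11). Trim63 (MuRF1), a ubiquitin ligase of muscle atrophy, fell by 0.64, the stress sensor Sesn3 by 0.57 and the mTORC1 inhibitor Tsc1 by 0.38, while Tsc2, its partner, rose by 0.16, Lamtor3, of the Ragulator anchor, by 0.32 and Mitf, a relative of TFEB, by 0.39.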

How the data were processed

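The deposited table holds log2 signals made by the authors by robust multi-array averaging (RMA) in Partek, per the submitters' processing notes; versions, probe annotation and build are not given in the sources used here. These 20 arrays have 35556 probe sets, of which 21789 carry 1 gene symbol, 1621 several and 12146 none by GEO's platform annotation, which can be old. Of a gene's single-symbol probe sets the brightest over 20 arrays was kept, giving 19938 genes, 999 of them with several probe sets. Array medians differ between the 2 cohorts, so levels were compared within a cohort. No 2 arrays were identical, and the number of arrays limits the precision.

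Changes were tested with limma 3.58.1 in R 4.3.3 (lmFit on 4 group means over 20 arrays, contrasts.fit, eBayes, 2-sided), with Benjamini-Hochberg adjustment over all genes and a threshold of 0.05. SE is the moderated standard error. The scripts were tested on simulated data. Alternatives were quantile normalization, median centring, leaving out the dimmest 40% of genes, the mean of probe sets, 10 arrays, a trended robust prior, array weights, a replicate block and leaving out each array. All 37 genes were accounted for: array values are given for the 15 called genes with the smallest adjusted p, and of each further list up to 4 called genes per direction. Marker sums add unlogged signals. The members, lists and motifs were chosen with earlier results of these data known. Replicate numbers are shared between groups, and the deviations of same-numbered arrays correlated weakly, at -0.232 to 0.196.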

Additional observations from a re-analysis of the deposited data

Results flagged for a closer look

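Of 148 sets of 5 arrays (37 genes in 4 groups), 8 held an array that stood apart from the other 4, where chance gives about 1 in 20, or 7. In WT, Becn1 was highest on array 1 at 8.64, Atg5 lowest on array 5 at 7.23 and Bnip3 highest on array 5 at 11.31. In NCoR1-MKO muscle, array 4 was lowest for Pik3c3 at 7.34 and highest for Atg4b at 7.47. In PGC-1alpha-mTg muscle, Atg4d was lowest on array 4 at 8.37. In CON, Tfe3 was highest on array 4 at 8.16 and Lamp2 highest on array 2 at 10.46. The other 4 arrays lay at 8.55 for Becn1, 7.36 to 7.39 for Atg5, 11.11 to 11.17 for Bnip3, 7.54 to 7.59 for Pik3c3, 7.11 to 7.20 for Atg4b, 8.52 to 8.56 for Atg4d, at most 8.03 for Tfe3 and 10.33 to 10.36 for Lamp2.

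For 17 of the 37 genes the PGC-1alpha-mTg effect differed from the NCoR1-MKO effect by the limma test of the difference. Each effect is from its own cohort, so model and cohort cannot be told apart in this test. The difference was positive for Map1lc3a (0.60), Atg10 (0.45), Wipi1 (0.40), Atg4d (0.34) and Ctsb (0.27). It was negative for Atg4c (-0.50), Ulk2 (-0.42), Sqstm1 (-0.38), Fundc1 (-0.38), Atg14 (-0.36), Atg4a (-0.32), Atg13 (-0.21), Bnip3 (-0.19), Atg7 (-0.19), Gabarap (-0.18), Gabarapl2 (-0.18) and Bnip3l (-0.18).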

How the results depend on the processing

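In PGC-1alpha-mTg muscle, 19 of the 21 called genes kept their call in all 20 fits that left out 1 array and in all 8 other settings; the exceptions were Pink1 and Gabarapl2, described above. Members called ran from 5 to 7 higher and 15 to 18 lower over those 8 settings, and from 5 to 6 higher and 15 to 21 lower over the leave-one-out fits, with 21 without PGC-1alpha-mTg array 5. No called change of a member reversed in any setting.

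In NCoR1-MKO muscle, members called higher went from 0 to 1 under quantile normalization, without the dimmest 40% of genes and with the trended, robust prior, and members called lower from 1 to 0 after median centring and with the replicate block; both ran from 0 to 1 over the leave-one-out fits. Further pathway genes called higher went from 1 to 0 after median centring, with 10 arrays, with array weights and with the replicate block, and to 2 with the trended, robust prior. Over the leave-one-out fits they ran from 0 to 1 higher and from 0 to 2 lower, with 0 lower without CON array 5 and 2 without NCoR1-MKO array 5. All genes called higher went from 261 to 157 with 10 arrays and 154 with the replicate block, and from 169 to 312 over the leave-one-out fits.

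In the difference of effects, members called lower went from 12 to 7 with the replicate block, where Atg7, Bnip3, Bnip3l, Gabarap and Gabarapl2 lost their calls. Leaving out 1 array cost Atg7 its call in 11 fits, Atg14 and Gabarap in 10 and Gabarapl2 in 6, with adjusted p up to 0.0739, 0.0745, 0.0700 and 0.0578. Deviations of same-numbered arrays correlated at -0.132 to 0.04 between CON and NCoR1-MKO and at -0.232 to 0.196 between WT and PGC-1alpha-mTg. Differently numbered arrays were not compared, so whether the replicate numbers pair the arrays was not tested. The cause of these shifts was not tested.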
